A study of Arabidopsis thaliana with 9 samples.

Results

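Glucosinolates are sulfur-rich defence compounds of the cabbage family, and the aliphatic ones are built from methionine. The genes described here are 10 loci named for their place in that pathway: the regulators MYB28 and MYB29, the chain elongation enzymes BCAT4 and MAM1, and the core enzymes CYP79F1, CYP79F2, CYP83A1, UGT74C1, SOT17 and SOT18. The loci were chosen by pathway role at a time when the log2 values and fold changes of these same arrays, the response of SOT17 among them, were already known. The members' differences between groups are therefore given as a description. Of the 10, 8 had a row among the 21430 loci of the deposited table, and CYP79F1 and CYP79F2 are not analysed here.

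The arrays measured RNA of cells sorted by WOX5 promoter-driven GFP, a reporter of the quiescent centre (QC), the group of rarely dividing cells at the heart of the stem cell niche in Arabidopsis thaliana roots. All seedlings were 5 days old, carried mutations in PLT1 and PLT2, the WOX5::erGFP reporter and a complementing PLT2::PLT2-GR transgene, which joins the transcription factor PLT2 to a glucocorticoid receptor under the PLT2 promoter. The groups were 10 µM dexamethasone for 1 h (3 arrays), 10 µM dexamethasone for 4 h (3 arrays) and mock, DMSO for 1 h (3 arrays). No mock array had 4 h of incubation and no dexamethasone-treated line lacked the transgene, so PLT2-GR release, the agent itself and, at 4 h, the longer incubation cannot be told apart. Replicates are called biological in the labels, and no shared culture or batch is given.

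In the pathway, MYB28 and MYB29 switch on the aliphatic biosynthesis genes. Chain elongation then lengthens methionine by added carbon units, the core enzymes turn the lengthened amino acid into a sulfated thioglucoside, and side-chain enzymes modify the finished molecule. The indole branch starts from tryptophan, has its own MYB factors and first P450 enzymes, and shares several core enzymes with the aliphatic branch. Sulfation needs the activated sulfate donor PAPS.

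The values are log2 expression per probe set, and log2 fold changes come from 1 limma model over the 9 arrays, with the standard error (SE) after ±. A locus is called at a Benjamini-Hochberg adjusted p under 0.05 over all 21430 loci. Arrays of a group correlated across loci at 0.9949 to 0.9969 for 1 h, 0.9902 to 0.9935 for 4 h and 0.9962 to 0.9972 for mock. On replicate 1 at 4 h the added poly-A control RNAs averaged 8.79, against 6.16 to 6.66 on the other 8 arrays. Of the markers of the sorted cells, WOX5 is not analysed here, AGL42 had 2.78 to 3.04 in mock, under the lower quartile of each array (3.55 to 3.63), and SCR had 8.50 to 8.66. The root cap gene RCPG had 11.29 to 11.72 in mock, and whether this came from root cap cells in the sort was not tested. In such bulk samples, fewer cells of a type and less RNA per cell cannot be told apart.

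SOT17 stood apart from the other 7 measured members, which differed little between groups. SOT17 (AT1G18590) encodes a sulfotransferase of the last core step, which adds sulfate from PAPS to desulfoglucosinolates and prefers those made from methionine. Its log2 values were 6.60, 6.79 and 6.87 at 1 h, 7.35, 6.60 and 6.99 at 4 h, and 5.32, 5.16 and 4.91 in mock. All 6 dexamethasone arrays lay above all 3 mock arrays, and the 1 h and 4 h arrays overlapped. The log2 fold change was 1.63 ± 0.18 at 1 h (3.09-fold) and 1.85 ± 0.18 at 4 h (3.61-fold) against mock, and 0.22 ± 0.18 for 4 h against 1 h. The highest value, 7.35, came from the 4 h array whose poly-A controls stood apart. Without that array the 4 h log2 fold change was 1.66 against mock and 0.04 against 1 h. The part of the poly-A difference in this value was not tested.

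SOT18 (AT1G74090), a second sulfotransferase of the aliphatic branch, differed far less. Its values were 6.52, 6.70 and 6.54 at 1 h, 6.91, 6.51 and 6.79 at 4 h, and 6.58, 6.52 and 6.41 in mock, with overlap among all groups. Its log2 fold change was 0.08 ± 0.11 at 1 h (95% interval of the fit -0.16 to 0.33) and 0.23 ± 0.11 at 4 h (-0.02 to 0.48). UGT74C1 (AT2G31790), the glucosyltransferase that acts on the methionine-derived intermediates, had 5.11, 5.22 and 5.37 at 1 h, 5.52, 5.47 and 5.46 at 4 h, and 5.26, 5.63 and 5.37 in mock. Each of its dexamethasone groups overlapped the mock arrays, while the 4 h arrays all lay above the 1 h arrays. Its log2 fold change was -0.19 ± 0.11 at 1 h and 0.07 ± 0.11 at 4 h against mock, and 0.25 ± 0.11 for 4 h against 1 h.

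**Figure D1:**
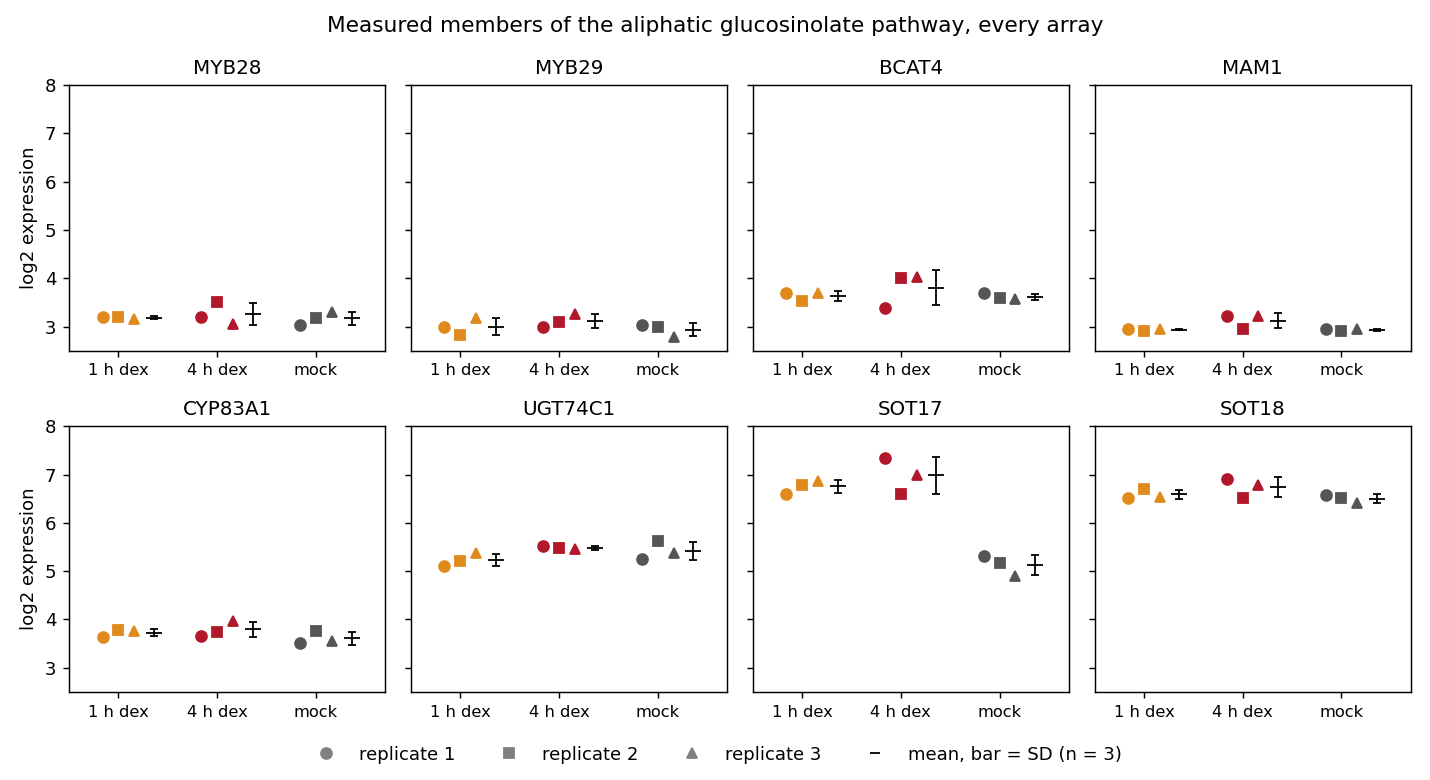
Log2 expression of the 8 measured members on every array (y axis), by group (x axis: 1 h dexamethasone, 4 h dexamethasone, mock). Symbols are replicates and the bar shows the mean ± SD of 3 arrays. SOT17 lies between 6.60 and 7.35 on the dexamethasone arrays and between 4.91 and 5.32 on the mock arrays, and the dexamethasone and mock arrays overlap for the other 7.

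The members that act before these enzymes had low signal on all arrays. CYP83A1 (AT4G13770), the P450 that oxidizes the aldoximes made from methionine, had 3.64, 3.78 and 3.76 at 1 h, 3.66, 3.75 and 3.97 at 4 h, and 3.51, 3.76 and 3.56 in mock. Its groups overlapped, with log2 fold changes of 0.12 ± 0.10 at 1 h and 0.19 ± 0.10 at 4 h. BCAT4 (AT3G19710), the aminotransferase that starts chain elongation by deaminating methionine, had 3.69, 3.52 and 3.69 at 1 h, 3.39, 4.01 and 4.02 at 4 h, and 3.69, 3.59 and 3.57 in mock. At 4 h BCAT4 was above mock on replicates 2 and 3 and below it on replicate 1, with a log2 fold change of 0.19 ± 0.15. It was 0.01 ± 0.15 at 1 h. Without 4 h replicate 1 the 4 h value was 0.40 and BCAT4 was then among the called loci. MAM1 (AT5G23010), which condenses the resulting oxo acid with acetyl-CoA, had 2.94, 2.91 and 2.94 at 1 h, 3.22, 2.94 and 3.21 at 4 h, and 2.94, 2.91 and 2.94 in mock. Of the 9 arrays, 5 held 1 identical MAM1 value, and its log2 fold change at 4 h, 0.20 ± 0.09, came from replicates 1 and 3.

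The regulators showed the same low, overlapping signal. MYB28 (AT5G61420), the main activator of the aliphatic genes, had 3.20, 3.20 and 3.15 at 1 h, 3.20, 3.51 and 3.06 at 4 h, and 3.03, 3.17 and 3.30 in mock. Its log2 fold change was 0.01 ± 0.12 at 1 h and 0.09 ± 0.12 at 4 h. MYB29 (AT5G07690), which acts beside MYB28, had 2.99, 2.82 and 3.18 at 1 h, 2.99, 3.09 and 3.27 at 4 h, and 3.03, 3.00 and 2.78 in mock, for log2 fold changes of 0.06 ± 0.12 and 0.18 ± 0.12.

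Of the 8 measured members, MYB28, MYB29 and MAM1 had mock values in the lowest 25% of loci, and CYP83A1 and BCAT4 lay just above that border. The share of loci with a mock value at or below the member's was 6.13% for MAM1, 6.61% for MYB29, 13.5% for MYB28, 25.3% for CYP83A1, 25.6% for BCAT4, 43.9% for SOT17, 46.6% for UGT74C1 and 58.9% for SOT18. Probe sets differ in how brightly they bind, so these shares place a signal on the array and do not rank transcripts. Background was not measured, and a fold change from so low a signal can understate a change in RNA. SOT16, SOT17 and SOT18 are related in sequence, and the probes behind each set are not named in the labels or the table, so shared hybridization among them cannot be checked.

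Counted at the threshold, 1 of the 8 members (SOT17) was called up at 1 h and 0 down, against 0.177% of all loci called up and 0.00933% down (0.187% in either direction). At 4 h again 1 of 8 (SOT17) was called up and 0 down, against 5.53% of loci up and 5.23% down (10.8% in either direction). For 4 h against 1 h limma called 0 of 8, against 1.85% of loci, and 1 member (UGT74C1) had an unadjusted p under 0.05, against 20.8% of loci. Arrays of 1 member (SOT17) lay wholly above mock at 1 h and at 4 h, and so did those of 5.73% and 14.3% of loci, while 1 member (UGT74C1) lay wholly higher at 4 h than at 1 h, as did 11.7% of loci. The list was drawn up with these contrasts known, so nothing is read from these counts. The median log2 fold change of the 8 was 0.04 at 1 h and 0.19 at 4 h, beside -0.008 and 0.01 over all loci. At 4 h all 8 values were above 0, as were those of 11164 of the 21430 loci. With single arrays left out, the lowest 4 h value was -0.042 for MYB28 and -0.013 for UGT74C1. The other members stayed above 0. Without mock replicate 2 or 3, or 1 h replicate 2 or 3, the 1 h count was 0, with SOT17 at 1.52 to 1.64. The count at 4 h was 1, or 2 (with BCAT4) without 4 h replicate 1.

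The other genes of the pathway were listed by their textbook roles, though with earlier results of these arrays known, and 43 of 52 listed loci were measured. Among them 2 were called up and 0 down at 1 h, beside 0.177% and 0.00933% of all loci. At 4 h 5 were called up and 1 down, beside 5.53% and 5.23% of all loci. The median log2 fold change was 0.01 at 1 h and 0.03 at 4 h. Both 1 h calls and 3 of the 6 calls at 4 h lay in core enzymes that act in both branches or in the indole one. Of 6 further core genes, SOT16 and UGT74B1 rose at 1 h and at 4 h, SUR1 rose at 4 h, and GSTF11, GSTU20 and GGP1 were not called.

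SOT16 (AT1G74100), the third sulfotransferase of the family, prefers the indole intermediate. It had 8.73, 8.97 and 8.84 at 1 h, 9.06, 8.82 and 9.22 at 4 h, and 8.01, 7.30 and 7.57 in mock. It rose by 1.22 ± 0.17 at 1 h (limma adjusted p = 0.0191) and by 1.41 ± 0.17 at 4 h (adjusted p = 0.00192), with all 6 dexamethasone arrays above all mock arrays. In the TAIR10.1 gene table SOT16 and SOT18 are next to each other on chromosome 1, with 0 protein-coding genes between them, and their 4 h log2 fold changes were 1.41 and 0.23.

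UGT74B1 (AT1G24100), the glucosyltransferase with the broadest role in the core pathway, had 7.15, 7.24 and 7.08 at 1 h, 7.52, 7.10 and 7.51 at 4 h, and 6.40, 6.42 and 6.15 in mock. It rose by 0.84 ± 0.13 at 1 h (limma adjusted p = 0.0292) and by 1.06 ± 0.13 at 4 h (adjusted p = 0.00189), and the dexamethasone and mock arrays did not overlap. SUR1 (AT2G20610), the C-S lyase that makes the thiol precursor for both branches, had 8.63, 8.43 and 8.53 at 1 h, 9.16, 8.43 and 8.84 at 4 h, and 7.78, 7.57 and 7.67 in mock. SUR1 rose by 1.14 ± 0.16 at 4 h (limma adjusted p = 0.00379), and at 1 h its value was 0.86 ± 0.16 (adjusted p = 0.0942) with no overlap of arrays. The 1 h calls of SOT16 and UGT74B1 are fragile: SOT16 lost its call without mock replicate 2 or 3 or any 1 h array (adjusted p = 0.0634 to 0.14), and UGT74B1 without any 1 of the 6 mock and 1 h arrays (adjusted p = 0.117 to 0.189). At 4 h all 3 were called whichever single array was left out.

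The remaining core genes make or trim the glutathione conjugate. The glutathione transferase gene GSTF11 was at -0.09 ± 0.09 at both times. GSTU20, of the same step and named with the aliphatic branch, was at -0.08 ± 0.19 at 1 h and 0.48 ± 0.19 at 4 h, where replicate 1 (4.56) stood above replicates 2 and 3 (3.90 and 3.73) and mock had 3.56, 3.72 and 3.46. GGP1, the peptidase that trims the glutathione conjugate, was at -0.05 ± 0.22 at 1 h and 0.39 ± 0.22 at 4 h.

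Of the 8 further chain elongation genes measured, BCAT3 and IPMDH2 rose at 4 h, both of them also at work in amino acid synthesis outside the pathway, and 6 were not called. BCAT3 (AT3G49680), a branched-chain aminotransferase that also closes chain elongation, had 9.72, 9.66 and 9.61 at 1 h, 9.99, 10.01 and 9.92 at 4 h, and 9.50, 9.43 and 9.55 in mock. It rose by 0.48 ± 0.08 at 4 h (limma adjusted p = 0.0063), and its 1 h value was 0.17 ± 0.08. IPMDH2 (AT1G80560), an isopropylmalate dehydrogenase of leucine synthesis, had 9.80, 9.68 and 9.84 at 1 h, 10.07, 9.99 and 9.92 at 4 h, and 9.71, 9.69 and 9.69 in mock. It rose by 0.30 ± 0.08 at 4 h (limma adjusted p = 0.0414), but lost the call with arrays centred on their medians (0.0504), with only the 4 h and mock arrays in the fit (0.082) and without any single array other than 4 h replicate 3 (0.0549 to 0.117). MAM3, the second methylthioalkylmalate synthase, was at 0.01 ± 0.15 at 4 h and the transporter BAT5 at -0.02 ± 0.11.

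No regulator, side-chain or transport gene outside the members was called by limma in any comparison. At 4 h against mock an unadjusted p under 0.05 was reached by 0 of 8 regulators, 0 of 11 side-chain genes and 1 of 3 transporters, beside 26.8% of all loci. At 1 h no gene of these 3 lists reached it, beside 930 of all 21430 loci. For 4 h against 1 h SDI1 alone did, beside 20.8% of all loci. Among regulators, MYC2, a jasmonate-signalling partner of the MYB factors, was at -0.15 ± 0.11 at 1 h and -0.23 ± 0.11 at 4 h. SDI1, a repressor of the pathway under sulfur shortage, was at 0.20 ± 0.13 at 1 h, -0.22 ± 0.13 at 4 h and -0.42 ± 0.13 for 4 h against 1 h (limma adjusted p = 0.111). Of 11 side-chain genes, 8 had mock values in the lowest 25% of loci. FMOGS-OX3, an S-oxygenase, was at -0.18 ± 0.10 at 4 h, and GSL-OH, which hydroxylates butenyl glucosinolate, at 0.03 ± 0.11. The plasma membrane importer GTR2 was at 0.39 ± 0.13 at 4 h (limma adjusted p = 0.087), with its 4 h arrays above those of mock, and GTR1 at 0.25 ± 0.15.

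Of 14 listed breakdown genes 7 were measured, and BGLU28 fell at 4 h. BGLU28 (AT2G44460), a beta-glucosidase that releases sulfur from glucosinolates under sulfur shortage, had 6.65, 6.36 and 6.20 at 1 h, 5.10, 4.57 and 4.98 at 4 h, and 6.33, 7.19 and 6.87 in mock. Its 4 h arrays lay below all others. It fell by 1.91 ± 0.21 at 4 h on the log2 scale (limma adjusted p = 0.00136), and its 1 h value was -0.39 ± 0.21. For 4 h against 1 h the value was -1.52 ± 0.21 (adjusted p = 0.0212), with the adjusted p at 0.0515 to 0.128 when mock replicate 3, any 1 h array or 4 h replicate 2 was left out. The 6 other breakdown genes were not called.

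**Figure D2:**
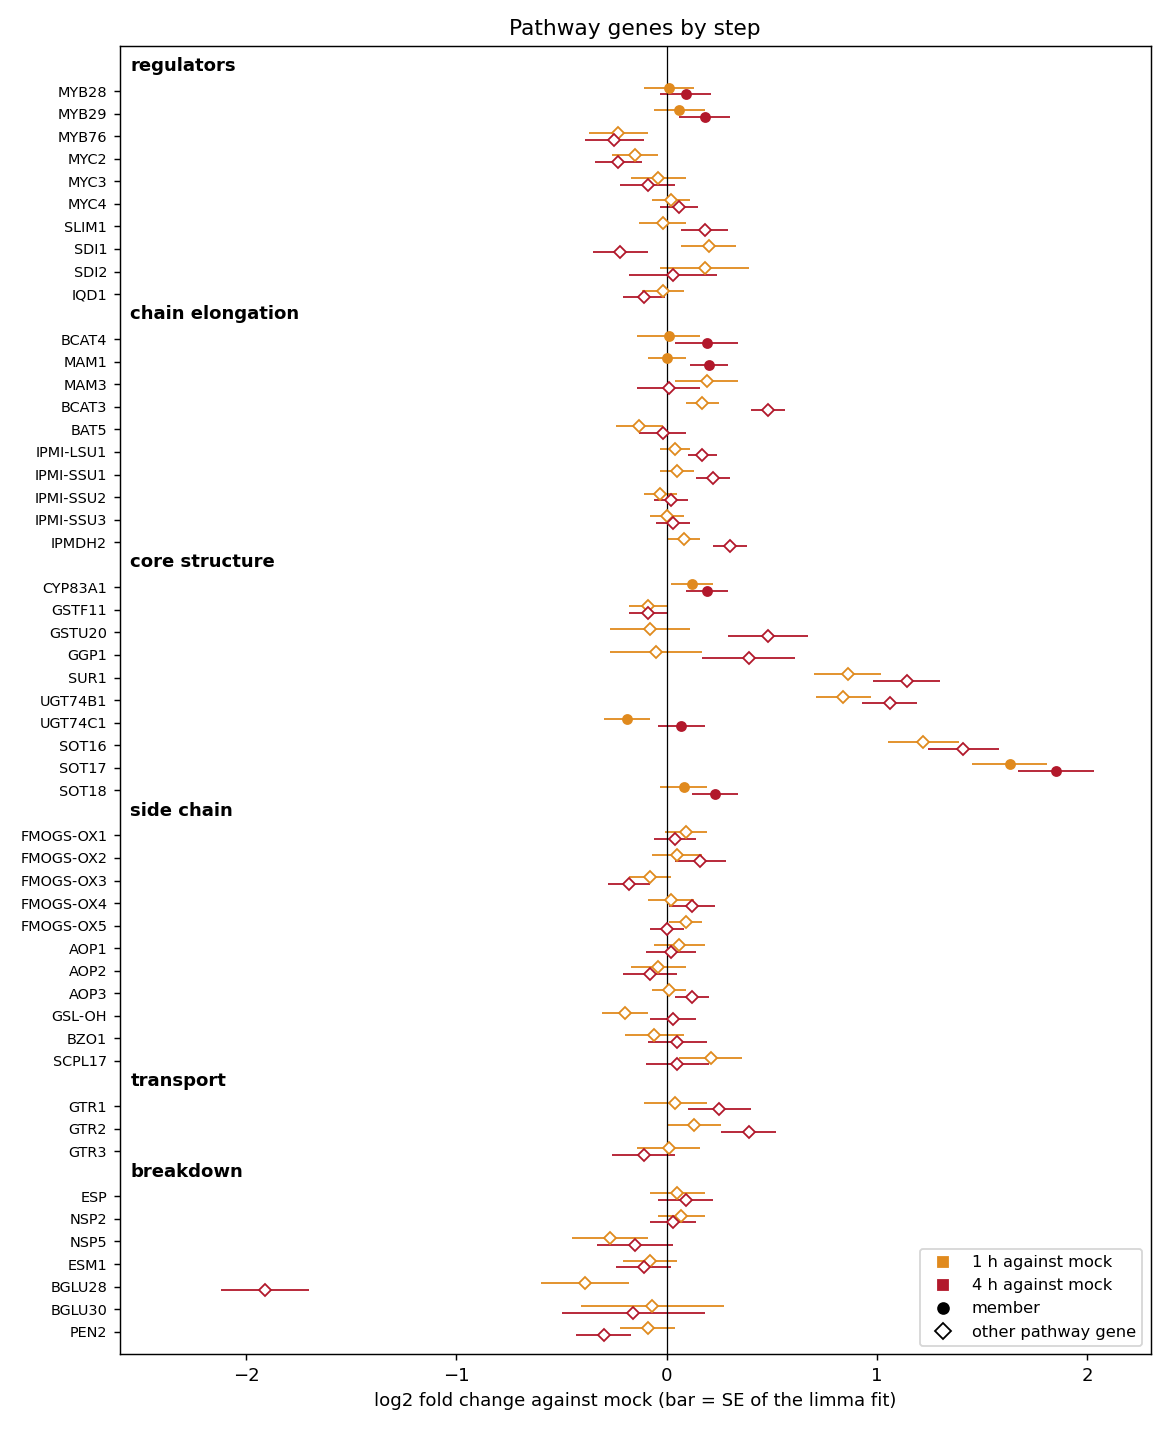
Log2 fold change against mock (x axis, bar = SE of the limma fit) of every measured pathway gene, by step (y axis), at 1 h (orange) and 4 h (red). Filled circles are members and open diamonds other pathway genes. SOT17, SOT16, SUR1 and UGT74B1 lie to the right, at 1.06 to 1.85 at 4 h, BGLU28 lies to the left at -1.91, and all others lie between -0.30 and 0.48 at 4 h.

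The indole branch and PAPS supply held calls next to SOT17. Of 15 indole branch genes, 4 were called up at 1 h and 6 at 4 h, beside 0.177% and 5.53% of all loci. None was called down, beside 0.00933% and 5.23%. The median log2 fold change of the 15 was 0.13 at 1 h and 0.40 at 4 h. CYP83B1 (AT4G31500), the indole counterpart of CYP83A1, had 9.24, 9.41 and 9.54 at 1 h, 10.43, 9.69 and 10.26 at 4 h, and 8.38, 7.95 and 7.76 in mock. It rose by 1.37 ± 0.20 at 1 h (limma adjusted p = 0.0273) and by 2.09 ± 0.20 at 4 h (adjusted p = 0.000568). CYP79B2 (AT4G39950), which makes indole-3-acetaldoxime from tryptophan, rose by 1.23 ± 0.14 and 2.12 ± 0.14, and CYP79B3 by 1.42 ± 0.18 and 2.59 ± 0.18. CYP81F1, which modifies the indole ring, rose by 0.99 ± 0.13 and 1.44 ± 0.13. These 4 genes were called at 4 h whichever single array was left out. At 1 h CYP83B1 and CYP81F1 lost the call without mock replicate 2 or 3 or any 1 h array, CYP79B2 without mock replicate 2 or 3 or 1 h replicate 2 or 3, and CYP79B3 without any mock or 1 h array (adjusted p = 0.0518 to 0.186 over the 4).

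The indole branch list holds 3 MYB regulators, and none was called. MYB51 was at -0.05 ± 0.11 at both times and MYB122 at 0.05 ± 0.09 at 1 h and 0.02 ± 0.09 at 4 h, with arrays that overlapped those of mock. The values of MYB34 were seen before it was chosen to stand beside MYB28 and MYB29. It had 6.32, 6.60 and 6.98 at 1 h, 7.30, 6.10 and 6.40 at 4 h, and 5.80, 5.88 and 5.70 in mock. Its dexamethasone arrays all lay above the mock arrays, at 0.84 ± 0.26 for 1 h (limma adjusted p = 0.788) and 0.81 ± 0.26 for 4 h (adjusted p = 0.0762). The 4 h value was 0.46 without 4 h replicate 1 (adjusted p = 0.163) and 1.06 without replicate 2, where MYB34 was called (adjusted p = 0.0455). Of the 2 indole glutathione transferase genes, GSTF9 was at 0.24 ± 0.12 at 1 h and rose by 1.01 ± 0.12 at 4 h (limma adjusted p = 0.00167). GSTF10, its neighbour on the chromosome, was at -0.09 ± 0.10 at 1 h and -0.07 ± 0.10 at 4 h.

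Among 8 PAPS supply genes, 1 was called up at 1 h and 2 at 4 h, beside 0.177% and 5.53% of all loci, and 0 were called down, beside 0.00933% and 5.23%. Their median log2 fold change was 0.25 at 1 h and 0.33 at 4 h. The APS kinase gene APK2 (AT4G39940), whose product makes the PAPS that the sulfotransferases use, rose by 1.41 ± 0.16 at 1 h (limma adjusted p = 0.00911) and by 1.95 ± 0.16 at 4 h (adjusted p = 0.000247). The 1 h call was lost without mock replicate 2 or 3 or 1 h replicate 2 or 3 (adjusted p = 0.0518 to 0.0778). APK2 and CYP79B2 are next to each other on chromosome 4, with 0 protein-coding genes between them, and their 4 h log2 fold changes were 1.95 and 2.12. A second APS kinase gene, APK1, rose by 0.92 ± 0.14 at 4 h (limma adjusted p = 0.00531) and was at 0.76 ± 0.14 at 1 h. ATP sulfurylase acts 1 step earlier, and its genes differed in sign. APS2 was at -0.06 ± 0.12 at 1 h and -0.38 ± 0.12 at 4 h (limma adjusted p = 0.0615), with its 4 h arrays below those of mock. APS3 was at 0.23 ± 0.11 and 0.35 ± 0.11 (adjusted p = 0.0764 at 4 h), with its arrays above those of mock at both times. APS1 was at 0.27 ± 0.13 and 0.21 ± 0.13, and APS4 at -0.01 ± 0.12 and -0.21 ± 0.12. None of these genes was called.

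**Figure D3:**
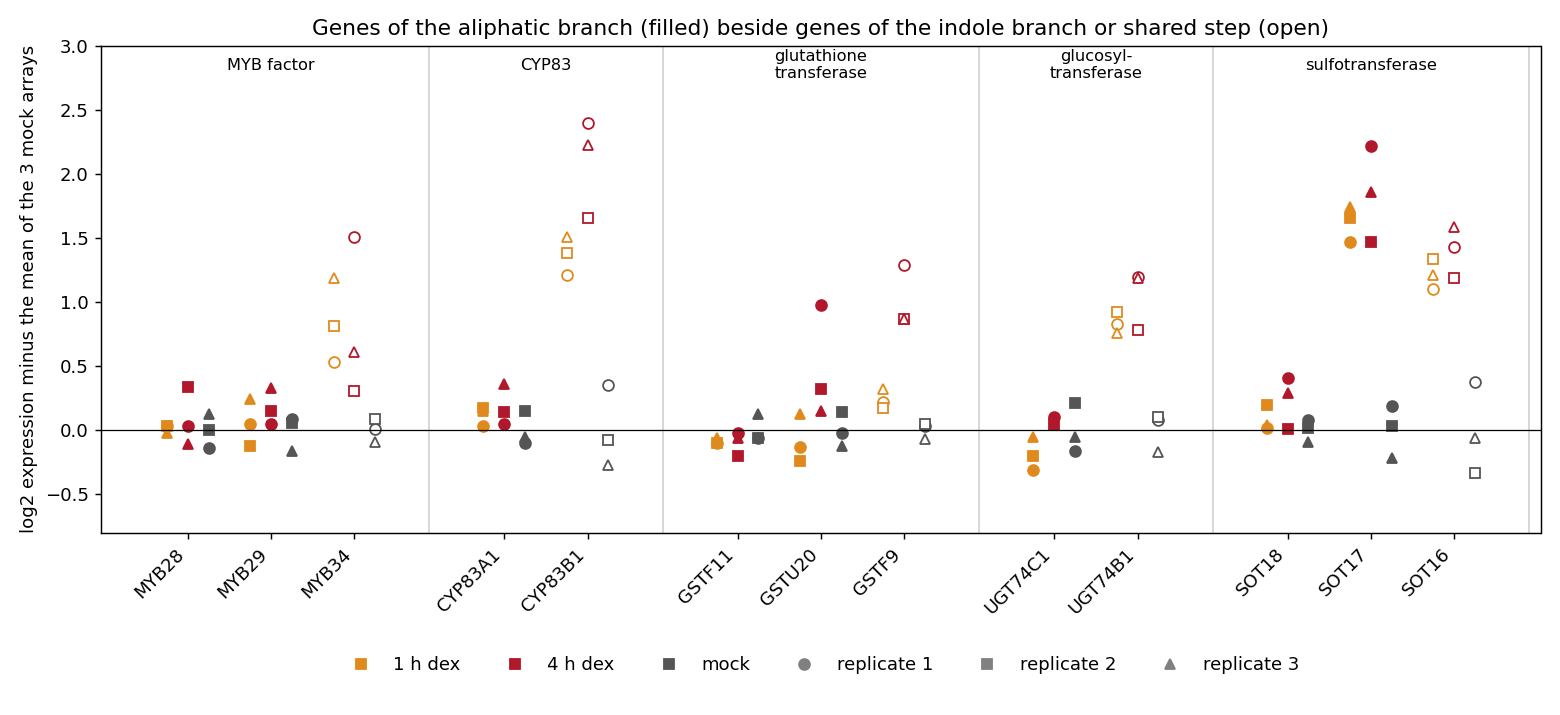
Log2 expression minus the mean of the 3 mock arrays (y axis) for genes of the aliphatic branch (filled) beside the gene of the indole branch or shared core that acts at a like step (open), with 1 h, 4 h and mock arrays in that order and symbols for replicates. SOT17, SOT16, UGT74B1, CYP83B1, GSTF9 and MYB34 have all dexamethasone arrays above their mock arrays, and MYB28, MYB29, CYP83A1, GSTF11, UGT74C1 and SOT18 do not. For GSTU20 this held at 4 h alone. The plot does not show MYB51, MYB122 and GSTF10, whose arrays overlapped those of mock.

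The pattern of the members over the 9 arrays was set beside that of every other locus by Pearson's r, as a description. For the mean of the 6 measured enzyme members, which SOT17 dominates, the closest of 21422 loci were AT1G72180 (r = 0.98), CYP706A4 (0.977), CYP83B1 (0.975), HOS3-1 (0.972) and NAC084 (0.969). For MYB28 they were AT2G34120 (0.946), NSH5 (0.944) and AT3G21290 (0.928), and for MYB29 CYP71B26 (0.965), FAS2 (0.962) and AT5G57345 (0.958). The 4 h log2 fold changes of these 6 matches were between 0.06 and 0.31. MYB28 and MYB29 had low signal and ranged over only 0.47 and 0.50 on the 9 arrays. Whether their matches, the best of 21422 loci, exceed those of noise was not tested. A search for SOT17 alone, added after its values were seen, gave LAX2 (0.995), an auxin influx carrier, LYK2 (0.982), PIN4 (0.981), an auxin efflux carrier, UGT74B1 (0.981) and APK2 (0.98). With SOT17 the r was 0.69 for SOT18, 0.561 for MAM1, 0.538 for CYP83A1, 0.436 for MYB29, 0.131 for BCAT4, 0.012 for MYB28 and -0.074 for UGT74C1. Ranked by r among 21429 loci, SOT18 was at place 1299, MAM1 at 2829, CYP83A1 at 3107 and MYB29 at 4445. BCAT4 was at 8671, MYB28 at 10369 and UGT74C1 at 11656. All these values share the same arrays and the same split into dexamethasone and mock groups.

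Markers of root cell types were read on the same arrays. The mean log2 level of the 8 measured QC and niche markers (of 9 listed) was 6.33 to 6.36 at 1 h, 6.23 to 6.44 at 4 h and 6.27 to 6.35 in mock. The mean log2 level of 6 endodermis and cortex markers was 4.87 to 5.00 at 1 h, 4.46 to 4.77 at 4 h and 4.84 to 5.11 in mock. For 9 vascular markers it was 4.78 to 4.88 at 1 h, 4.66 to 4.77 at 4 h and 4.79 to 4.82 in mock. In both of these lists the 4 h means all lay below the mock means. For 5 root cap markers it was 7.50 to 8.09 at 1 h, 7.35 to 7.92 at 4 h and 7.75 to 7.94 in mock. For 5 epidermis markers it was 5.61 to 5.87 at 1 h, 5.39 to 5.92 at 4 h and 5.69 to 5.90 in mock. At 4 h 1 of 6 endodermis and cortex markers (ESB1) was called down. So were 2 of 9 vascular (XCP1 and TMO5) and 1 of 5 epidermis markers (RHD6), beside 5.23% of all loci. Of the 5 root cap markers 1 was called up, beside 5.53% of all loci. With so few markers, nothing is read from these counts. Of the 5 root cap markers, SMB, BRN1, BRN2 and RCPG had log2 fold changes of -0.35, -0.49, -0.76 and -0.41 at 4 h, none of them called, and the 4 h arrays of BRN2 and RCPG lay below those of mock. FEZ, a root cap regulator, had the opposite sign: it was at 1.03 ± 0.24 at 1 h (limma adjusted p = 0.29) and rose by 0.97 ± 0.24 at 4 h (adjusted p = 0.0279). RHD6, an epidermal regulator of root hairs, fell by 0.81 ± 0.16 at 4 h (adjusted p = 0.0143). The part of cell composition in the values of SOT17 and the other genes was not tested.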

How the data were processed

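The 9 arrays were deposited as 1 table of log2 expression per probe set. The submitters' processing notes name RMA and limma 3.24.15. A genome build and the composition of the probe sets were not found in these notes, the labels or the table. After 64 controls were set aside from 21494 probe sets, each of 21430 loci had 1 probe set, and symbols were taken from the TAIR10.1 gene table for the 21231 found there. Some symbols (UGT74C1, GSL-OH, RCPG) come from knowledge of the pathway. Values were used as deposited, with no filter. The model was limma 3.58.1 in R 4.3.3 (lmFit, eBayes) on group means of all 9 arrays, with 6 residual and 4.47 prior degrees of freedom, two-sided. The median SE at 4 h against mock was 0.108, and precision is limited by 3 arrays in each group. The procedure was tested on simulated data. Members and lists were chosen with earlier results of these data known. Named beside the members were all called genes of the pathway lists, up to 4 of the breakdown, indole and PAPS lists, and the 2 with the smallest p where a list had no call. GSTU20, GSTF11, GGP1, GSTF9, GSTF10, MAM3, BAT5, MYB34, MYB51, MYB122, APS1, APS2, APS3 and APS4 were named after their values were seen. The search for like patterns was planned over all enzyme members, of which 6 were measured. Tried as alternatives were quantile normalization, centring on medians, leaving out probe sets below the 40th percentile, trend and robust eBayes, only the groups compared, a replicate block and leaving out each array. No promoter or protein sequence was used here.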

Additional observations from a re-analysis of the deposited data

How the results depend on the processing

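In the 5 alternatives other than the block and the left-out arrays (of which the filter at the 40th percentile left out MYB28, MYB29, MAM1, BCAT4 and CYP83A1), the numbers of members called were as reported: 1 at 1 h, 1 at 4 h and 0 between the times. Leaving out single arrays, these numbers ranged from 0 to 1, from 1 to 2 and stayed at 0. For the other pathway genes they ranged from 0 to 3 at 1 h, 5 to 8 at 4 h and 0 to 4 between the times, and over all loci from 6 to 61, from 688 to 4153 and from 3 to 2808. For other pathway genes and all loci the highest counts at 4 h and between the times came without 4 h replicate 3, and for the members the count of 2 at 4 h came without 4 h replicate 1. Other pathway genes called at 1 h numbered 0 without mock replicate 2 or 3 or any 1 h array, and 1 without mock replicate 1. With only the groups compared, 65 loci were called at 1 h, 1067 at 4 h and 4 between the times, where 0 other pathway genes were called. Same-numbered arrays did not deviate together (r from -0.131 to 0.273), so the numbers were not taken as pairs. Between differently numbered arrays of different groups r ranged from -0.459 (1 h replicate 1 and 4 h replicate 3) to 0.427 (1 h replicate 1 and 4 h replicate 2). The origin of these shared deviations was not tested. With the replicate number as a block, 1, 1 and 0 members were called, 2, 6 and 1 other pathway genes, and 36, 2340 and 422 loci; the calls of IPMDH2 at 4 h (adjusted p = 0.0611) and UGT74B1 at 1 h (adjusted p = 0.069) were lost, and SUR1 at 1 h (adjusted p = 0.0346) and GTR2 at 4 h (adjusted p = 0.0496) were gained. Values under alternatives were tallied for the members, MYB34 and, of the other genes named, only those already called in the comparison. Of these 705 values, 635 kept their side of the threshold, 68 lost a call and 2 gained one (BCAT4 and MYB34). Of the values called in the main fit 0 changed sign. Changes of sign in uncalled values were not tallied and did occur, as for MYB28 at 4 h (-0.042 without 4 h replicate 2). Calls gained by other uncalled genes, such as SUR1 and GTR2 with the block, lie outside this tally. Causes were not tested. The alternatives for the 1 h and between-time values of other genes, and for MYB34 and the other indole and PAPS genes, were chosen after seeing the data. Low signal limits what can be said of MYB28, MYB29, MAM1, BCAT4 and CYP83A1. Of loci below the lower quartile 24.6% had 1 identical value on at least 3 arrays, against 9.96% of the other loci.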
